A study of Mus with 4 samples.

Results

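The genes examined here belong to the Notch pathway and to γ-secretase, the protease that releases the active fragment of the Notch receptor. A list of 36 genes was followed, made of the receptors, the ligands, the target genes, the nuclear complex, the enzymes that add sugars to the receptor, γ-secretase, both ADAM proteases and regulators of endocytosis. All probes of the array that were not controls and whose accession mapped to one of these symbols were taken, whatever their signal. There were 42 such probes for 34 of the 36 genes, out of 41166 probes tested and 16358 named genes on the array. *Maml2* and *Numbl* were not matched to a probe and were not analysed here.

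Notch signalling passes between neighbouring cells. A ligand of the Jagged or Delta-like family on one cell binds a Notch receptor on the next, an ADAM protease cuts the receptor outside the membrane, and γ-secretase then cuts it within the membrane. The fragment that is set free enters the nucleus, joins RBPJ and a Mastermind-like coactivator, and switches on genes of the Hes and Hey families. In the developing kidney the pathway acts when nephron progenitor cells leave the cap mesenchyme and form the renal vesicle, and it is known for its part in the formation of the proximal tubule.

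RNA came from cells sorted by FACS for the green fluorescence of the *Six2* Cre transgene from kidneys at embryonic day 15.5. *Mut* cells carried the *Six2* CreEGFP transgene and PRR flox/flox, so that PRR, the prorenin receptor, was deleted from the nephron progenitors and the cells derived from them, and *WT* cells carried the same transgene with PRR+/+. Cells of many kidneys were pooled, and 3 *Mut* and 3 *WT* pools were measured. Arrays 1, 2 and 3, of a dual-colour Agilent design, each carried 1 *Mut* pool in Cy3 (green) and its like-numbered *WT* pool in Cy5 (red). On array 4 both samples were *WT*, pool 1 in Cy5 against pool 2 in Cy3. Because the dyes were never exchanged, genotype and dye cannot be told apart within arrays 1 to 3, and array 4, called the *WT* vs *WT* array, is given beside the main results. Which RNA array 4 holds rests on its labels, and for *Jag1*, *Hes5* and *Hey1* *WT* pool 1 lay near or above the level of the *Mut* pools there, so every value taken from array 4 depends on those labels. The log ratios of arrays 1 to 3 correlated with those of the *WT* vs *WT* array over all probes at 0.398 to 0.450. Cy3 was well above background at 45.1% to 51.1% of probes and Cy5 at 54.2% to 58.4%, with 0 saturated spots. *Atp6ap2*, the gene of PRR, had a log2 *Mut*/*WT* of -0.17 (SE 0.055) and a log2 Cy3/Cy5 of -0.19 on the *WT* vs *WT* array, so its probe does not separate the genotypes, and all directions given here were taken from the labels of the dyes. The direction found here for *Jag1*, *Hes5* and *Lhx1*, and the sign for *Notch1* and *Jag2*, are opposite to those the study gives, but this does not hold for every gene it names. In pooled cells, fewer cells of a type and less RNA per cell cannot be told apart. With 3 arrays per comparison, small differences could not be resolved.

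Among the 42 probes, those past both thresholds were the dimmer ones of *Hes6* and *Aph1a*, both lower in *Mut* within arrays 1 to 3. Set against *WT* pool 2 in the same dye, *Hes6* was at -0.59 and *Aph1a* at 0.02 on the log2 scale. When both thresholds were applied (limma, adjusted P under 0.05 and more than 1.5-fold), 0 of the 42 were higher and 2 (4.76%) were lower in *Mut*, against 0.551% of all probes higher and 1.46% lower. At an unadjusted P under 0.05 with the same fold minimum these counts were also 0 and 2, and by the methods' *t*-test 0 and 2. No share over all probes is given for these unadjusted counts. The adjusted P alone was passed by 9 probes that were higher (21.4%) and 13 that were lower (31.0%), against 13.2% and 16.4% of all probes. The *Mut* and *WT* channels did not overlap at 7 probes that were higher (16.7%) and 15 that were lower (35.7%), against 17.4% and 20.6% of all probes. The 3 arrays had the same sign at 37 of the 42 probes (88.1%, all probes 59.6%), and 18 had a mean above 0 (all probes 49.8%). None of the 42 differed by more than 1.5-fold between the *WT* pools of the *WT* vs *WT* array, against 0.0947% of all probes. With the log ratios deposited by the authors 3 probes were called higher and 2 lower (all probes 3.62% and 2.95%), and with a dye term estimated from the *WT* vs *WT* array 1 and 0 (all probes 0.355% and 0.430%). With that dye term the adjusted P alone was passed by 2 probes that were higher, those of *Jag1* and *Hes5*, and 0 that were lower (all probes 0.534% and 0.571%), so the other passes given below do not hold with it. The dye term is estimated from 1 array, and the ratios changed unevenly with it. Some were about as large or larger: *Mib1* was at -0.46 (adjusted P = 0.0991, limma), the brighter probe of *Hes6* at -0.36 (0.157), *Rfng* at -0.40 (0.186) and *Psenen* at 0.25 (0.371). Others were smaller with it, among them *Hes1* (-0.29), *Pofut1* (-0.26), *Notch3* (0.15) and *Rbpj* (0.01). The median log2 *Mut*/*WT* was -0.06 over the 42 probes and 0.00 over all probes tested. Both channels were well above background on all 3 arrays at 29 of the 42 probes, and at 4 probes neither channel was on any of arrays 1 to 3. No filter on low signal was applied, and each gene is led by its probe with the highest mean signal.

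**Figure D1:**
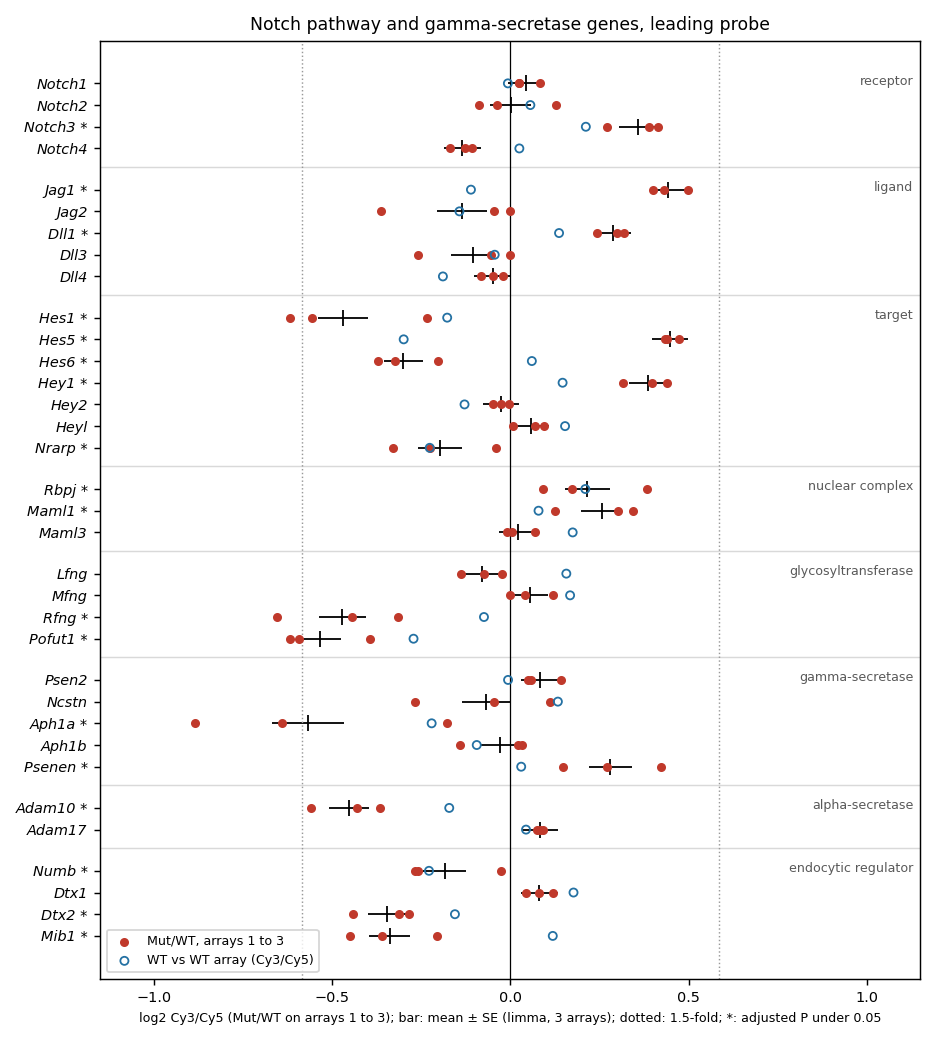
Each row is the leading probe of 1 of the 34 genes, grouped by role, with log2 Cy3/Cy5 on the horizontal axis (*Mut*/*WT* on arrays 1 to 3, red points; *WT* vs *WT* array, open blue circles) and the mean ± SE of the 3 arrays as a black bar. No leading probe has a mean beyond 1.5-fold (dotted lines), and *Aph1a* (-0.57) and *Pofut1* (-0.53) come closest to it.

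Of the 4 receptors, *Notch3* alone passed the adjusted P. *Notch1*, the receptor named in the study, is held by 1 probe whose normalized log2 signal was 6.76, 6.66 and 6.64 in the *WT* pools and 6.84, 6.69 and 6.67 in the *Mut* pools. The groups overlapped, and the mean log2 *Mut*/*WT* was 0.04 ± 0.03 (SD, n = 3; adjusted P = 0.565, limma). *Notch3*, a receptor known for its role in pericytes and smooth muscle of vessels, had a normalized log2 signal of 10.01, 10.01 and 10.05 in *WT* and of 10.40, 10.42 and 10.32 in *Mut*. All *Mut* pools lay above all *WT* pools. The mean ratio of *Notch3* was 0.36 ± 0.08 on the log2 scale (SD, n = 3; adjusted P = 0.000485), short of 1.5-fold. On the *WT* vs *WT* array, however, the log2 Cy3/Cy5 of *Notch3* was 0.21, with a dye term from that array the ratio was 0.15, and with each array centred on its median in place of loess it was -0.24. *Notch4*, an endothelial receptor, was at -0.13 (adjusted P = 0.0688). *Notch2*, the receptor that nephron formation depends on most, was at 0.00 (adjusted P = 0.995), with -0.09, 0.13 and -0.04 on arrays 1, 2 and 3 and a *Mut* channel well above background on 1 array.

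Markers of the stroma, where *Notch3* is also expressed, moved in the same direction. Of 7 stroma markers 5 were higher in *Mut* past the adjusted P and 1 was lower, against 14.4% and 18.6% of the leading probes of all named genes. The summed normalized signal of the list was 5033 to 5277 in *WT* and 6127 to 7501 in *Mut*. *Col1a1*, *Col3a1* and *Pdgfrb* passed both thresholds, and *Pdgfrb*, a pericyte gene, was at 0.60. Their ratios between both *WT* pools of array 4 were 0.43, 0.27 and 0.18. *Foxd1*, the defining transcription factor of the cortical stroma, was well above background in both genotypes and lower in *Mut*, at -0.30. Their part in the value of *Notch3* was not tested. Of 10 markers of the nephron progenitor, the cell type the sort was made for, 9 were well above background in both channels on all 3 arrays, *Six2*, *Cited1* and *Eya1* among them. The summed signal of these 10 genes was 14232 to 14563 in *WT* and 14238 to 14690 in *Mut*. Past the adjusted P, 2 of them were higher in *Mut*, *Eya1* (0.31) and *Itga8* (0.27), against 14.4% of the leading probes of all named genes. Lower were 4, *Six2* (-0.18), *Sall1* (-0.25), *Osr1* (-0.35) and *Meox1* (-0.49), against 18.6%. The dimmer probes of *Osr1* (-0.66) and *Meox1* (-0.75) passed both thresholds. Against *WT* pool 2 in the same dye *Six2* was at -0.04, *Sall1* at -0.12, *Osr1* at -0.18 and -0.44 (dimmer), *Meox1* at 0.17 and -0.11 (dimmer), *Eya1* at 0.09 and *Itga8* at -0.11. From array 1 to the *WT* vs *WT* array, *WT* pool 1 moved by -0.72 and -0.60 at the *Meox1* probes.

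Among the 5 ligands, *Jag1* and *Dll1*, which pattern the renal vesicle, were higher in *Mut* past the adjusted P, and *Jag2*, *Dll3* and *Dll4* were at the limit of detection. The brighter probe of *Jag1* had a normalized log2 signal of 7.72, 7.76 and 7.74 in the *WT* pools and 8.16, 8.16 and 8.23 in the *Mut* pools. The groups did not overlap, and the mean log2 ratio was 0.44 ± 0.05 (SD, n = 3; adjusted P = 9.67e-05), a 1.36-fold difference. *WT* pool 1, however, measured 8.36 and *WT* pool 2 measured 8.25 on the *WT* vs *WT* array, so the same 2 *WT* pools lay above every *Mut* pool there. The ratio of *Jag1* was 0.02 with median centring and 0.76 with the deposited log ratios. *Dll1* had a normalized log2 signal of 6.51, 6.60 and 6.45 in *WT* and 6.83, 6.84 and 6.75 in *Mut*, again without overlap. Its log2 *Mut*/*WT* of 0.29 ± 0.04 (SD, n = 3; adjusted P = 0.0015) compares with 0.14 for *WT* pool 2 over *WT* pool 1. *Dll1* kept its direction in all alternative settings, between 0.15 with the dye term and 1.11 with the deposited log ratios, and with the latter it passed both thresholds (adjusted P = 0.0333). *Jag2* had a normalized log2 signal of 6.42, 6.25 and 6.20 in *WT* and 6.06, 6.25 and 6.16 in *Mut*, and the groups overlapped. *Jag2*, *Dll3* and *Dll4* were well above background in *WT* on 1 array each and in *Mut* on none, with log2 ratios of -0.14, -0.11 and -0.05, and none passed the adjusted P.

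Genes of the differentiating nephron, among which *Jag1* is usually counted, were higher in *Mut* past the adjusted P in 5 of 10 cases and lower in 1. The shares over the leading probes of all named genes were 14.4% and 18.6%. *Lhx1* and *Ccnd1* were past both thresholds. As with *Jag1*, *WT* pools 1 and 2 of the *WT* vs *WT* array were at or near the *Mut* level: against *WT* pool 2 in the same dye *Lhx1* was at -0.13 and *Ccnd1* at -0.00012. The summed signal of this list was 4842 to 5036 in *WT* and 5087 to 5162 in *Mut*, and its part in the ratio of *Jag1* and *Dll1* was not tested.

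The 7 target and feedback genes went in both directions. *Hes1* and *Hes6* were lower in *Mut*, *Hes5* and *Hey1* were higher, and all 4 passed the adjusted P. *Hes1*, the transcriptional repressor most widely used as a readout of Notch, had a normalized log2 signal of 7.89, 7.81 and 7.82 in *WT* and 7.28, 7.26 and 7.58 in *Mut*. The *Mut* pools lay below the *WT* pools, pool 3 least so. From array 1 to array 3 the ratios were -0.62, -0.56 and -0.24, with a mean of -0.47 (SE 0.071, adjusted P = 0.000494), and *WT* pool 2 over *WT* pool 1 was at -0.18. Without array 3 *Hes1* passed both thresholds, at -0.59, and with the dye term it passed neither, at -0.29 (adjusted P = 0.372).

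*Hes6* encodes a protein of the same family that opposes *Hes1* and promotes differentiation in the nervous system. It is held by a pair of probes that were both lower in *Mut*, to different extents. The brighter probe (A_51_P429366) had a normalized log2 signal of 11.23, 11.18 and 11.17 in *WT* and 10.86, 10.86 and 10.97 in *Mut*, which gave a mean ratio of -0.30 (SE 0.055, adjusted P = 0.00169). The dimmer probe (A_52_P512301) had a normalized log2 signal of 8.40, 8.22 and 8.41 in *WT* and 7.02, 7.18 and 7.67 in *Mut*. Its log2 *Mut*/*WT* of -1.38, -1.04 and -0.75 on arrays 1, 2 and 3 gave a mean of -1.05 ± 0.32 (SD, n = 3; SE 0.092, adjusted P = 1.39e-05), a 2.08-fold fall. On the *WT* vs *WT* array this probe was at -0.32. With the dye term it was at -0.74 and no longer passed the adjusted P (0.0901), and with the deposited log ratios, at -1.70, it did not pass either (adjusted P = 0.0914). Which transcripts either probe binds was not determined.

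*Hes5* is expressed in the renal vesicle and *Hey1* in vessels and developing nephrons. The *Hes5* signal was 6.84, 6.87 and 6.79 in *WT* and 7.28, 7.35 and 7.23 in *Mut*, with no overlap and a mean log2 ratio of 0.45 ± 0.02 (SD, n = 3; adjusted P = 7.72e-05), yet *WT* pool 1 reached 7.63 and *WT* pool 2 reached 7.33 on the *WT* vs *WT* array. *Hey1* showed the same pattern, with 9.43, 9.41 and 9.44 in *WT*, 9.74, 9.81 and 9.88 in *Mut*, and 9.73 and 9.88 in *WT* pools 1 and 2 on the *WT* vs *WT* array. The log2 *Mut*/*WT* of *Hey1* was 0.38 (SE 0.053, adjusted P = 0.000263), short of 1.5-fold, and with median centring it was -0.19. *Nrarp*, a feedback inhibitor of the pathway, was at -0.20 (adjusted P = 0.0308), but neither channel was well above background on any of arrays 1 to 3, and the same holds for *Hey2*, at -0.03. *Heyl*, at 0.06 with its brighter and -0.09 with its dimmer probe, did not pass the adjusted P with either.

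**Figure D2:**
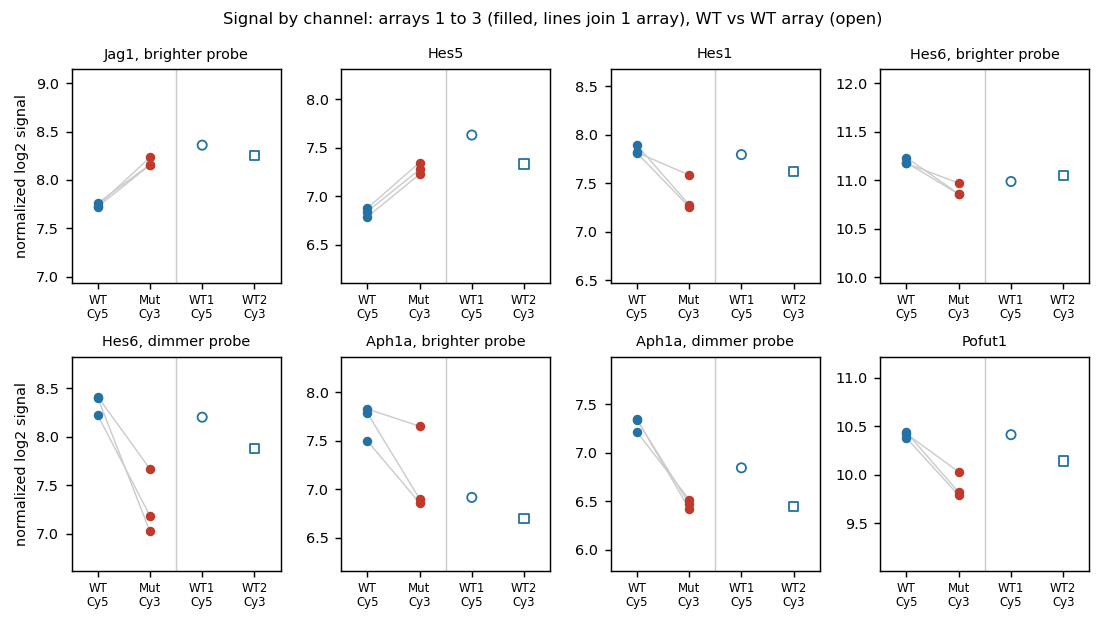
Normalized log2 signal of 8 probes in each channel, with *WT* (blue, Cy5) and *Mut* (red, Cy3) pools of arrays 1 to 3 joined by array and both *WT* pools of the *WT* vs *WT* array as open symbols; all panels span the same range. For *Jag1* and *Hes5* the open symbols lie with or above the *Mut* pools although they are *WT*, and for *Hes1*, the dimmer probe of *Hes6* and *Pofut1* they lie above all *Mut* pools.

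In the nuclear complex, *Rbpj*, the DNA-binding partner of the Notch fragment, and the coactivator *Maml1* were slightly higher in *Mut*. *Rbpj* had a log2 *Mut*/*WT* of 0.38, 0.17 and 0.09 on arrays 1, 2 and 3 (mean 0.22, SE 0.062, adjusted P = 0.0222), against 0.21 on the *WT* vs *WT* array, and with the dye term its value was 0.01. *Maml1* was at 0.34, 0.30 and 0.12 (mean 0.26, SE 0.058, adjusted P = 0.00604), against 0.08. The *Mut* and *WT* channels overlapped for both genes. Both turned lower with median centring, *Rbpj* to -0.16 and *Maml1* to -0.28. *Maml3*, well above background in *Mut* on 0 of 3 arrays, was at 0.02 (adjusted P = 0.797).

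Of the enzymes that add sugars to the receptor, *Pofut1* and *Rfng* were lower in *Mut*. POFUT1 places the O-fucose that receptor and ligand need to bind. Its probe had a normalized log2 signal of 10.38, 10.44 and 10.42 in *WT* and 9.78, 9.82 and 10.03 in *Mut*, and its mean ratio was -0.53 ± 0.12 (SD, n = 3; SE 0.059, adjusted P = 6.34e-05). All *Mut* pools lay below all *WT* pools. The fall was 1.45-fold, and without array 3 it passed the fold minimum as well, at -0.60. The *WT* vs *WT* array gave -0.27 for *Pofut1*, and the dye term left -0.26 (adjusted P = 0.331). *Rfng*, one of the Fringe enzymes that lengthen this fucose and tune the response to Delta-like or Jagged ligands, was at -0.66, -0.44 and -0.32 on arrays 1, 2 and 3 (mean -0.47, SE 0.065, adjusted P = 0.000281), and *WT* pool 2 over *WT* pool 1 was at -0.07. Its *Mut* channel was well above background on 1 array. *Rfng* was at -2.42 with the deposited log ratios (limma, adjusted P = 0.169) and at -1.08 with an offset of 0 (adjusted P = 0.124). The other Fringe genes did not pass the adjusted P: *Lfng* was at -0.08, with neither channel well above background on any array, and *Mfng* was at 0.05.

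γ-Secretase is built of a presenilin, nicastrin, an APH1 protein and PEN-2. Of the 5 genes measured, *Aph1a* was lower and *Psenen*, which encodes PEN-2, was higher in *Mut* past the adjusted P. The brighter probe of *Aph1a* (A_52_P217195) had a normalized log2 signal of 7.79, 7.50 and 7.83 in *WT* and 6.90, 6.86 and 7.65 in *Mut*. *Mut* pool 3 lay within the *WT* range, and the 3 ratios of -0.89, -0.64 and -0.18 gave a mean of -0.57 ± 0.36 (SD, n = 3; SE 0.100, adjusted P = 0.00138). Array 3 decided the call, since without it the mean was -0.76 and passed both thresholds. At the dimmer probe (A_52_P9716) the signal was 7.35, 7.21 and 7.34 in *WT* and 6.42, 6.52 and 6.47 in *Mut*, without overlap. In *Mut* this probe was well above background on 0 of 3 arrays. In these normalized values it was 1.78-fold lower in *Mut* (log2 *Mut*/*WT* -0.83, SE 0.058, adjusted P = 3.29e-06, limma), against 1.48-fold at the brighter probe. Both values are open to dye bias. With the dye term the dimmer probe was at -0.43 (limma, adjusted P = 0.112). With the deposited log ratios it was at -3.53 (limma, adjusted P = 0.0325) and passed both thresholds. *WT* pools 1 and 2 of the *WT* vs *WT* array were at 6.84 and 6.45 with the dimmer and at 6.92 and 6.70 with the brighter probe, below all 3 *WT* pools of arrays 1 to 3.

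*Psenen* had a normalized log2 signal of 10.56, 10.44 and 10.39 in *WT* and 10.83, 10.86 and 10.53 in *Mut*. *Mut* pool 3 again overlapped with *WT*, and the mean log2 *Mut*/*WT* was 0.28 (SE 0.060, adjusted P = 0.00467), against 0.03 on the *WT* vs *WT* array, and -0.33 with median centring. *Aph1b* is the other APH1 gene. Its 3 probes were at -0.03, -0.09 and -0.20, the dimmest of them past the adjusted P (0.0121), and with the deposited log ratios that probe was at -0.68 and passed both thresholds. The presenilin gene *Psen2* was at 0.08 (adjusted P = 0.263). *Ncstn*, the gene of nicastrin, was at -0.07 (adjusted P = 0.492), and was well above background in *Mut* on 0 of 3 arrays. Of the ADAM proteases, *Adam10*, which makes the first cut when a ligand is bound, was lower in *Mut*, at 7.56, 7.69 and 7.79 in *WT* and 7.19, 7.13 and 7.36 in *Mut*. Its log2 *Mut*/*WT* was -0.45 ± 0.10 (SD, n = 3; adjusted P = 0.000138), against -0.17 on the *WT* vs *WT* array. *Adam17* was at 0.08 with its brighter probe and at 0.25 with the other, the latter past the adjusted P (0.0035).

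**Figure D3:**
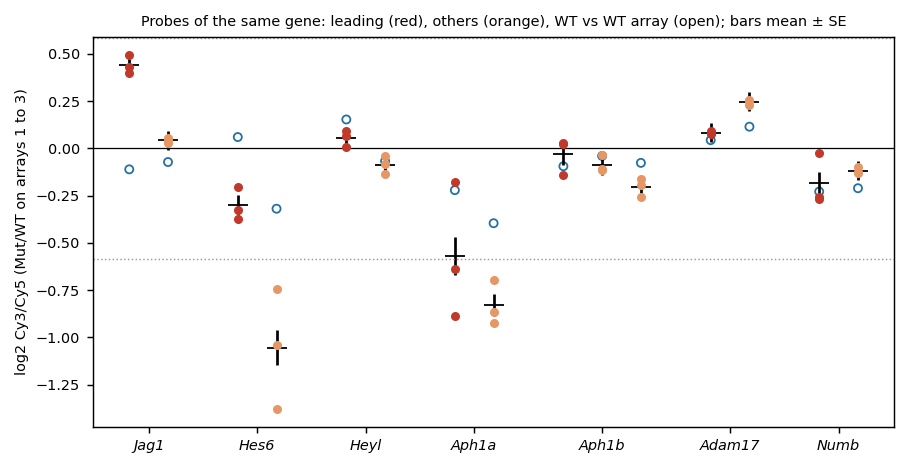
log2 Cy3/Cy5 of every probe of the 7 genes with several probes, with the leading probe in red, the others in orange, mean ± SE of 3 arrays as bars and the *WT* vs *WT* array as open circles. The probes of *Hes6* are at -0.30 and -1.05 and those of *Aph1a* at -0.57 and -0.83, the dimmer probe of *Jag1* (0.04) was well above background in neither channel on any array, and those of *Aph1b* lie between -0.20 and -0.03.

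Of the 4 regulators of endocytosis and ubiquitination, 3 were lower in *Mut* past the adjusted P and short of 1.5-fold. *Mib1* encodes the ubiquitin ligase that activates ligands in the sending cell. It had a normalized log2 signal of 8.78, 8.72 and 8.70 in *WT* and 8.33, 8.36 and 8.49 in *Mut*, for a mean ratio of -0.34 (SE 0.059, adjusted P = 0.00118), while the *WT* vs *WT* array was at 0.12. *Dtx2*, a Deltex ligase that acts on the receptor, was at -0.35 (SE 0.054, adjusted P = 0.000657), against -0.16. *Numb*, an inhibitor of the receptor, was at -0.18 with its leading probe (adjusted P = 0.039), and the value of -0.23 on the *WT* vs *WT* array was larger. *Dtx1* was at 0.08 (adjusted P = 0.258).

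The *Mut* pools could also be set against *WT* pool 2 in the same dye, Cy3, on the *WT* vs *WT* array. This comparison holds 1 *WT* pool and runs between arrays, so it has no test, and it shares the *Mut* channels with the ratios above. The dimmer probe of *Hes6*, at -0.59, was the single member probe of 42 (2.38%) beyond 1.5-fold, against 0.406% of all probes. Of the genes that were lower within arrays, values below 0 were found for *Rfng* (-0.28), *Pofut1* (-0.26), *Hes1* (-0.25), *Adam10* (-0.20), *Hes6* (-0.15 at its brighter probe) and *Mib1* (-0.14), whereas *Aph1a* was at 0.44 with its brighter and 0.02 with its dimmer probe. Of the genes that were higher within arrays, values above 0 were found for *Maml1* (0.42), *Rbpj* (0.24), *Psenen* (0.23), *Notch3* (0.12) and *Dll1* (0.07), and values below 0 for *Jag1* (-0.07), *Hey1* (-0.06) and *Hes5* (-0.05).

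*WT* pool 1 was hybridized in Cy5 both on array 1 and on the *WT* vs *WT* array, which shows how far a member moved between arrays with dye and, by the labels, RNA held the same. It moved by more than 1.5-fold at 3 of the 42 probes, against 0.972% of all probes. *Hes5* was 0.79 and *Jag1* 0.64 higher on the *WT* vs *WT* array, and *Aph1a* was 0.87 lower, each larger than its mean log2 *Mut*/*WT*. *Mib1* (-0.36), *Maml1* (-0.32), *Rbpj* (-0.26) and *Notch4* (-0.22) were among those that also moved at least as far as their mean ratios. *Pofut1* moved by 0.03, *Adam10* by 0.04, *Hes1* by -0.10 and the dimmer probe of *Hes6* by -0.20.

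**Figure D4:**
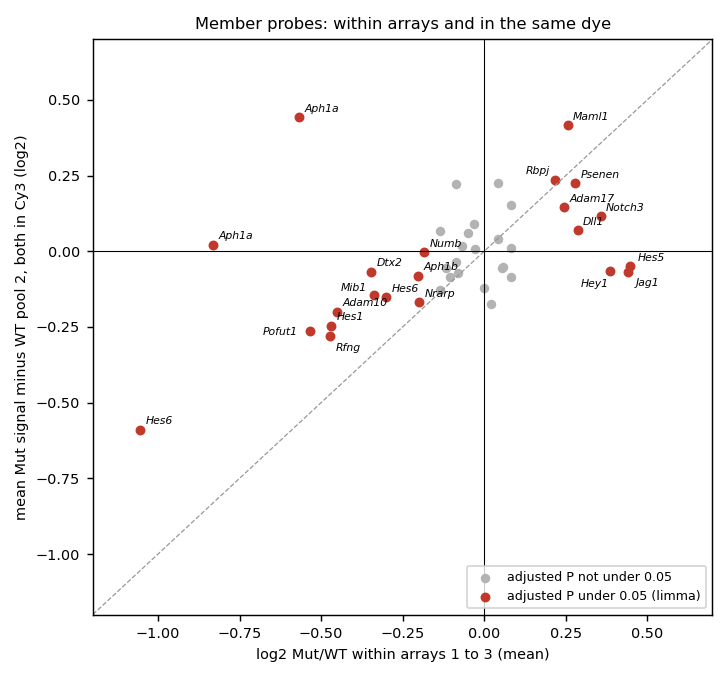
Each point is 1 of the 42 member probes, with the mean log2 *Mut*/*WT* of arrays 1 to 3 on the horizontal axis and the mean *Mut* signal minus *WT* pool 2, both in Cy3, on the vertical axis (log2; dashed line, equal values). Red points have an adjusted P under 0.05; *Hes6* lies at the lower left, and *Jag1*, *Hes5*, *Hey1* and both probes of *Aph1a* have opposite signs on the axes.

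Another 45 genes linked to the pathway were listed as well, of which 41 had a probe. By their leading probes 10 were higher and 9 lower past the adjusted P, against 14.4% and 18.6% of the leading probes of all named genes, and 1, *Ccnd1*, passed both thresholds, at 0.68. A dimmer probe of *Dvl1*, a Wnt pathway gene also linked to Notch, was called lower, at -0.73, while its brighter probe was at -0.15. The median log2 *Mut*/*WT* of this list was 0.04. The largest values short of 1.5-fold were those of *Furin*, the protease that matures the receptor (0.49, against 0.41 on the *WT* vs *WT* array), and *Hdac1*, a histone deacetylase found with RBPJ (0.40, against 0.30), on the higher side. On the lower side they were *Mib2* (-0.36, against -0.16), the relative of *Mib1*, and *Bsg* (-0.35, against -0.35), a protein found with γ-secretase. Of 8 endothelium markers, cells in which *Notch4*, *Dll4*, *Hey1* and *Hey2* are known to act, 0 passed the adjusted P (limma), 2 were well above background in both channels on all 3 arrays, and the summed signal was 876 to 907 in *WT* and 877 to 890 in *Mut*. Of the 7 ureteric bud markers 0 passed, of the 7 erythroid markers 2 were higher (*Hbb-y* and *Alas2*), and of the 5 macrophage markers 1 was higher and 1 lower.

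**Figure D5:**
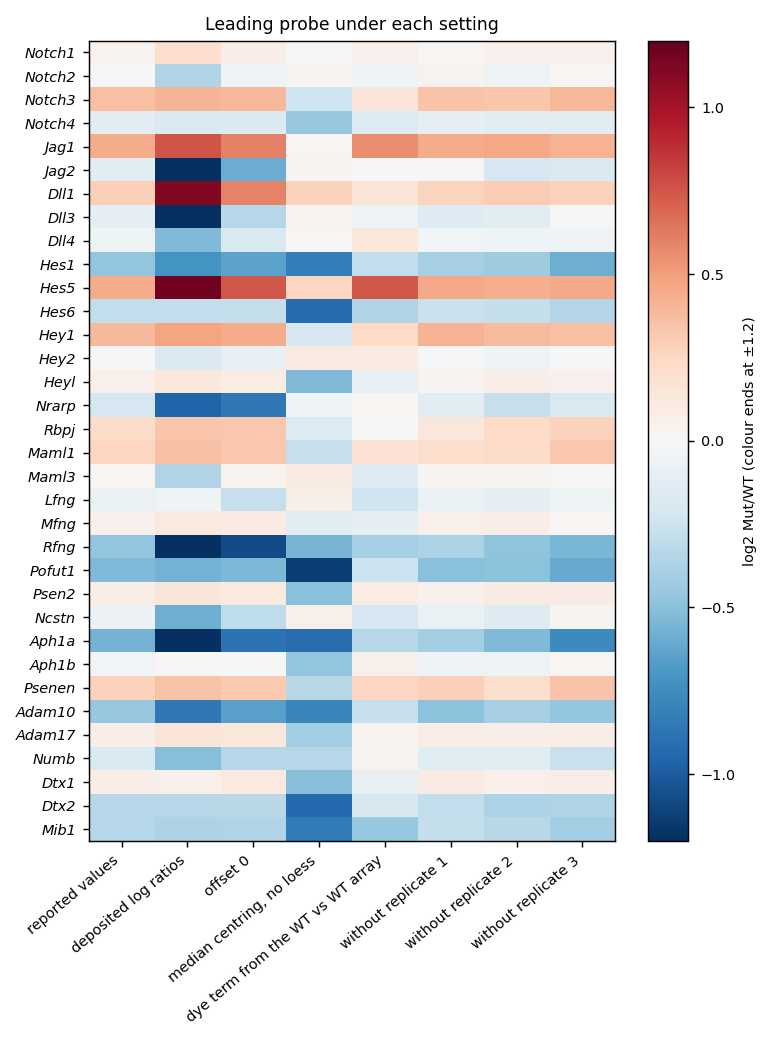
log2 *Mut*/*WT* of the leading probe of each gene (rows, by role) as reported and under 7 alternative settings (columns); red is higher and blue lower in *Mut*, with the colour ending at ±1.2. *Hes1*, *Hes6*, *Rfng*, *Pofut1*, *Adam10*, *Dtx2* and *Mib1* are blue and *Hes5* and *Dll1* red in every column, while median centring turns *Notch3*, *Hey1*, *Maml1* and *Psenen* blue.

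Over all alternative settings, 12 of the 34 genes kept their direction, 3 of them higher (*Jag1*, *Dll1* and *Hes5*) and 9 lower (*Notch4*, *Hes1*, *Hes6*, *Rfng*, *Pofut1*, *Aph1a*, *Adam10*, *Dtx2* and *Mib1*). Against *WT* pool 2 in the same dye *Notch4*, *Jag1*, *Hes5* and *Aph1a* had the other sign.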

How the data were processed

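Two-colour Agilent arrays of sorted *Six2*-positive cells were analysed, 3 *Mut* vs *WT* and 1 *WT* vs *WT*. Each deposited intensity is, per the file headers, a value of Agilent Feature Extraction 10.7.3.1: median brightnesses of spot and background per channel, without normalization. The deposited log10 ratio of red over green holds the same spots after background subtraction and dye normalization by that program and served as an alternative. The other deposited flags mark outlier and detected spots. The study's GeneSpring values were not used here.

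The background was corrected by normexp (offset 50), loess was applied to the ratios of each array with control spots at weight 0, control and outlier spots (122 to 162 per array) were left out, and spots of a probe were averaged. Ratios were turned to Cy3 over Cy5. Channel levels are normalized log2 signals after Aquantile. Mean ratios of arrays 1 to 3 were tested against 0 with limma 3.58.1 in R 4.3.3, Benjamini-Hochberg adjusted over 41166 probes. An adjusted P under 0.05 with a fold over 1.5 is the study's threshold. The script was tested on simulated data. Fold bounds used, per array, the lowest detected signal or that of the probe itself, whichever was larger. For the dimmer probe of *Aph1a* the bound equalled the fold itself. Pools of an array deviated together (correlation 0.386, 0.428 and 0.318), and each ratio carries that pairing. P-values measure the mean ratio against its spread between the 3 arrays, with the variance drawn toward that of the other probes. They do not measure the spread between pools of 1 genotype, and they carry nothing of a dye effect shared by the arrays.

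Symbols came from a GRCm38.p6 table matched to array accessions without versions, for 22951 of 41174 probes. No coordinates or sequences are given, since the array was designed on another build. Members, gene lists and tests were chosen with earlier results of these data known. All members are reported. Given in full are those with a probe past both thresholds, those that the study singles out (*Notch1*, *Jag1*, *Hes5* and *Aph1a*), and the largest change in each role.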

Additional observations from a re-analysis of the deposited data

How the results depend on the processing

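The 2 lower calls, the dimmer probes of *Hes6* and *Aph1a*, were the calls of limma when dim probes were left out, outlier spots were kept, or the channels were fitted unpaired (0 higher, 2 lower; without that pairing 7 higher and 11 lower probes passed the adjusted P). The counts depended on how background and dye were treated. With the deposited log ratios 3 probes were called higher (*Jag1*, 0.76, *Dll1*, 1.11, and *Hes5*, 1.16). The 2 called lower were the dimmer probe of *Aph1a* (-3.53) and the dimmest probe of *Aph1b* (-0.68). The adjusted P was passed there by 5 higher and 3 lower probes. With an offset of 0, with median centring and with the methods' *t*-test after adjustment, 0 member probes passed in either direction, with or without the fold minimum, and of all 41166 probes 0 passed both thresholds. The ratios of the called probes were not smaller there (*Hes6* -1.46 with an offset of 0 and -1.47 with median centring, *Aph1a* -1.77 and -0.97). At an unadjusted P under 0.05 and 1.5-fold these settings gave 3 higher and 6 lower, 0 and 9, and 0 and 2. No share over all probes is given in this section for counts at the unadjusted P. The same holds for the adjusted P alone with the deposited log ratios, unpaired channels or 1 array left out. Those counts cannot be set against the array as a whole. With the dye term 1 probe was called higher (*Hes5*, 0.75) and 0 lower, and 2 higher and 0 lower passed the adjusted P (1 and 1 at the unadjusted P with 1.5-fold). A fold minimum of 2 left 1 lower call, *Hes6*. Leaving out 1 array gave 0 higher and 2 to 5 lower calls, and 6 to 9 higher and 10 to 13 lower probes past the adjusted P. Over all probes the lower calls numbered 390 to 917, against 600 with all arrays. The additional calls came without array 3 (*Aph1a*, -0.76, *Pofut1*, -0.60, and *Hes1*, -0.59). Their causes were not tested beyond the construction of each alternative.

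The split was 18 higher and 24 lower probes as reported and 13 and 29 with median centring. The direction turned for 22 of the 34 genes in at least 1 setting. With median centring, which leaves the trend of the ratio with brightness in place, it turned for 17: lower were *Notch1* (-0.017), *Notch3* (-0.24), *Hey1* (-0.19), *Heyl* (-0.53), *Rbpj* (-0.16), *Maml1* (-0.28), *Mfng* (-0.13), *Psen2* (-0.50), *Psenen* (-0.33), *Adam17* (-0.41) and *Dtx1* (-0.51), and higher were *Jag2* (0.036), *Dll3* (0.030), *Dll4* (0.017), *Hey2* (0.10), *Lfng* (0.078) and *Ncstn* (0.065). With the dye term it turned for 11, namely *Notch2* (-0.055), *Heyl* (-0.10), *Maml3* (-0.15), *Mfng* (-0.11), *Dtx1* (-0.10), *Jag2* (0.0065), *Dll4* (0.14), *Hey2* (0.10), *Nrarp* (0.028), *Aph1b* (0.065) and *Numb* (0.044). With the deposited log ratios *Notch2* (-0.36), *Maml3* (-0.36) and *Aph1b* (0.011) turned, and with an offset of 0 *Notch2* (-0.055) and *Aph1b* (0.00023). Leaving out 1 array gave -0.062 to 0.045 for *Notch2* (lower without array 2), and, turning without array 3, -0.0031 to 0.036 for *Maml3*, -0.16 to 0.033 for *Ncstn* and -0.060 to 0.026 for *Aph1b*. *Heyl* turned with the median over its probes (-0.015).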
